A study of Mus musculus with 16 samples.

Results

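Newborn mice of both genotypes answered hyperoxia with largely the same genes, and the comparison described here is the difference between their answers: the change with oxygen in pups labelled Fgf10+/- minus the change with oxygen in wild-type pups. This difference is the genotype by oxygen interaction. It used all 16 arrays of the series, with 1 mean for each of the 4 groups named in the sample titles. A positive interaction means a higher oxygen response in Fgf10+/- pups, which for a gene that falls in oxygen is a smaller fall.

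Lung homogenates were taken at postnatal day 3. The groups were Fgf10+/- pups kept in 85% oxygen from day 0 to day 3, Fgf10+/- pups in normoxia, wild-type pups in the same hyperoxia, and wild-type pups in normoxia, with 4 one-colour Agilent arrays each. In Fgf10+/- pups 1 of the pair of Fgf10 alleles is inactive, from conception on and in every cell type, so no group isolates the lung. Litters are not labelled, and the p-values below rest on the variation among these pups alone.

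FGF10 is a growth factor made by the mesenchyme of the lung, and it acts through its receptor on the epithelium to drive branching and to maintain epithelial progenitors. Hyperoxia damages the newborn lung: it injures epithelium and endothelium, activates the p53 and NRF2 stress pathways, stops cell division and arrests the formation of alveoli, and it serves in rodents as a model of bronchopulmonary dysplasia. In whole lung, fewer cells of a type and less RNA per cell cannot be told apart.

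Some arrays stood apart, and this bears on the results below. The wild-type normoxia array of replicate 4 had a mean log2 intensity of 7.74 over 24 skeletal muscle genes, against 5.13 to 5.29 on the other wild-type normoxia arrays, and it was also high in heat-shock genes. The Fgf10+/- normoxia array of replicate 1 had a mean of 10.30 over 18 heat-shock genes, against 10.81 to 11.29 on the other Fgf10+/- normoxia arrays. Replicate arrays correlated across genes with r between 0.974 and 0.983. By Eif2s3y and Xist, 1 of 4 Fgf10+/- hyperoxia pups, 2 of 4 Fgf10+/- normoxia pups, 2 of 4 wild-type hyperoxia pups and 1 of 4 wild-type normoxia pups were male. Males were thus fewer in hyperoxia than in normoxia among Fgf10+/- pups and more among wild-type pups. Sex therefore runs partly along the interaction, and a fit with a sex covariate is among the alternatives below.

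Fgf10 itself did not separate the genotypes in the way its label would have it. As the mean of its 10 features, Fgf10 had log2 intensities of 6.96, 7.47, 7.33 and 7.37 in Fgf10+/- hyperoxia and 7.63, 8.10, 7.80 and 8.02 in Fgf10+/- normoxia. The wild-type arrays had 7.28, 7.41, 7.62 and 7.66 in hyperoxia and 7.50, 7.69, 7.35 and 7.81 in normoxia. In normoxia the 2 genotypes overlapped, with the higher values in the pups labelled Fgf10+/-, so the level of Fgf10 did not bear out the genotype label. Where the features lie relative to the inactivated part of the gene is not known here, and the genotypes are named below as the labels give them. The difference between hyperoxia and normoxia was -0.60 in Fgf10+/- pups and -0.09 in wild-type pups on the log2 scale. The interaction of -0.51 had p = 0.0253 in a two-sided exact permutation test that exchanged genotype labels within each oxygen level (4900 arrangements, smallest possible p 0.000408). That test asks whether genotype matters at either oxygen level. In limma the brightest Fgf10 feature had an interaction of -0.69 (SE 0.29), which did not pass (adjusted p = 0.737).

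The first question is whether any single gene responded differently to oxygen in the 2 genotypes. Among 20173 named genes, limma called 0 in the interaction at an adjusted p under 0.05, which is 0% of those tested. The smallest adjusted p was 0.467. At an unadjusted p under 0.05 there were 787 genes with a positive interaction (3.9%) and 548 with a negative one (2.72%), 1335 in all. Among 31490 features that name no gene, 0 were called and 1592 (5.06%) had an unadjusted p under 0.05. A fit without both arrays that stand apart, chosen after seeing the data, called 15 genes, and a fit without wild-type hyperoxia replicate 2 called 1, Tfr2.

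The precision sets what these counts can show. The median standard error of the interaction was 0.28 log2 units, and the median 95% interval reached 0.60 to each side. The interval lay wholly within 2-fold for 11795 genes (58.5%), and for 5599 of the 6728 genes called in the mean oxygen response (83.2%). It lay within 0.5 log2 units of 0 for 4153 genes (20.6%). A smaller difference in response was therefore not detectable for most single genes with 4 arrays a group.

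In each genotype the oxygen response was broad. In Fgf10+/- pups hyperoxia raised 2629 genes (13%) and lowered 2161 (10.7%), and 1002 of these changed by at least 2-fold. In wild-type pups it raised 2082 genes (10.3%) and lowered 1764 (8.74%), with 711 changed by at least 2-fold. Called in both genotypes were 2870 genes in the same direction and 4 in opposite directions. Of the 1916 genes called only in Fgf10+/- pups, 1758 had the same sign in wild type, and of the 972 called only in wild type, 883 had the same sign in Fgf10+/- pups. A gene called in 1 genotype and not in the other is not shown to differ between them, since no interaction passed.

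**Figure D1:**
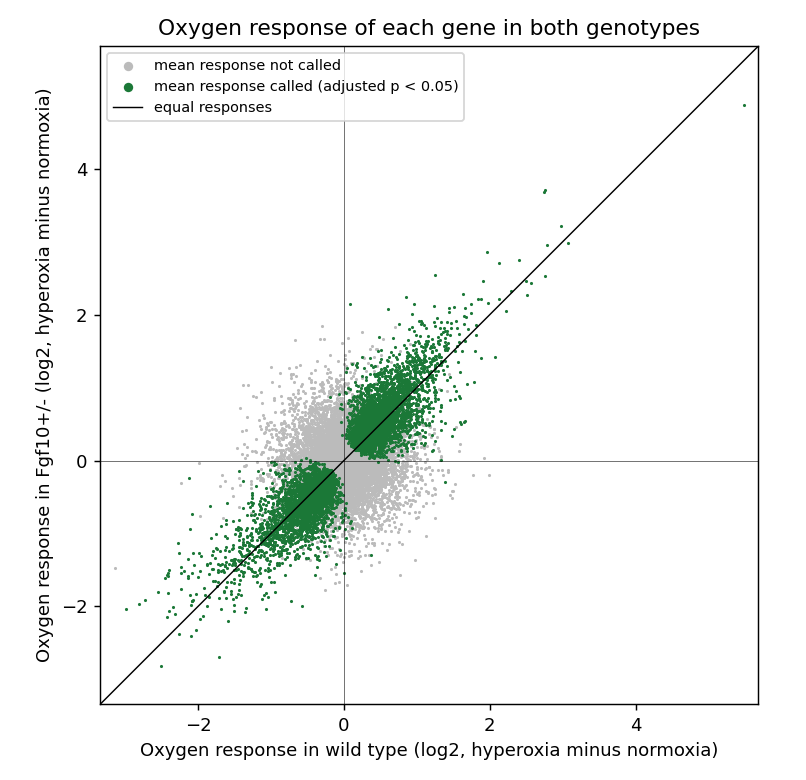
Oxygen response of each of 20173 genes in Fgf10+/- pups (vertical axis) against wild-type pups (horizontal axis), both as log2 hyperoxia minus normoxia; green points were called in the mean response of both genotypes. The points follow the line of equal responses, with r = 0.639 across genes, which are not independent replicates.

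To compare the size of the responses, genes were chosen by their mean oxygen response, the average of both genotypes' responses. In a balanced design with equal spread this mean is independent of the interaction, so the choice does not favour either genotype. The mean variance within groups was 0.173 and 0.184 for Fgf10+/- hyperoxia and normoxia and 0.153 and 0.178 for wild-type hyperoxia and normoxia. The mean response was called for 6728 genes (33.4%), of which 3710 were higher and 3018 lower in hyperoxia, and 99.6% had the same sign in both genotypes.

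Most of these genes moved somewhat more in Fgf10+/- pups. The response was larger in Fgf10+/- pups for 4095 of the 6728 genes (60.9%). Among genes higher in hyperoxia this was so for 2343 of 3710 (63.2%), with median responses of 0.53 in Fgf10+/- pups and 0.46 in wild type. Among genes lower in hyperoxia it was so for 1752 of 3018 (58.1%), with medians of -0.55 and -0.49. Genes share arrays and move together, so these shares carry no p.

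The pattern turned round among the strongest falls. Of genes with a mean response between 1 and 1.5, 227 of 296 (76.7%) responded more in Fgf10+/- pups, and of those between 1.5 and 2, 39 of 46 (84.8%) did, while above 2 the share was 13 of 20 (65%). Of genes with a mean response between -2 and -1.5, 29 of 81 (35.8%) responded more in Fgf10+/- pups, and of those below -2, 7 of 20 (35%) did. The slope of the interaction on the mean response was 0.093 over all genes, 0.174 over the genes called higher and -0.062 over those called lower. Genes of cell division were among those that turned: of 84 called-lower members of the mitosis, DNA replication, recombination repair and histone lists, 25 (29.8%) responded more in Fgf10+/- pups, against 1727 of the other 2934 called-lower genes (58.9%). These 2 sets were not matched for size of response. By list, of members called in either direction, it was 9 of 32 for mitosis, 8 of 27 for replication, 6 of 13 for recombination repair and 2 of 14 for histones.

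**Figure D2:**
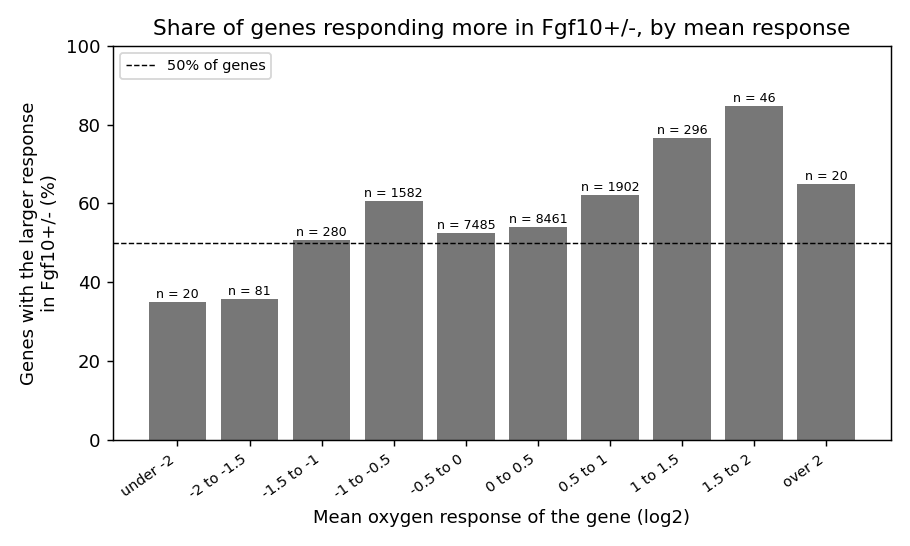
Share of genes (%, vertical axis) whose oxygen response was larger in Fgf10+/- than in wild-type pups, by the gene's mean oxygen response (log2, horizontal axis), with the number of genes above each bar. The share was 84.8% for rises between 1.5 and 2 and 35.8% for falls between -2 and -1.5.

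A score per array shows where the difference in size lies. The score was the mean log2 intensity of the genes called higher minus that of the genes called lower in the mean response. It was 0.78, 0.62, 0.68 and 0.57 in Fgf10+/- hyperoxia and -0.54, -0.60, -0.57 and -0.66 in Fgf10+/- normoxia. It was 0.77, 0.82, 0.81 and 0.64 in wild-type hyperoxia and -0.23, -0.40, -0.35 and -0.48 in wild-type normoxia. The genotypes overlapped in hyperoxia and did not overlap in normoxia, where Fgf10+/- arrays were lower. The response of the score was 1.26 (SE 0.05) in Fgf10+/- pups and 1.13 (SE 0.07) in wild type, a ratio of 1.12, and the difference of 0.13 had a standard error of 0.09. The slope over all genes ranged from 0.023 to 0.151 when each array was left out in turn, lowest without wild-type normoxia replicate 1, 0.026 without wild-type hyperoxia replicate 4, and highest without Fgf10+/- normoxia replicate 1.

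Gene classes were then described by their medians. Of 1201 symbols on 51 lists, 1148 were tested. Over all 20173 genes the median response was 0.03 in each genotype and the median interaction was 0.01, with 51.7% of genes positive. The median interaction was positive for 36 lists and negative for 15, and it exceeded 0.3 in size for 6: unfolded protein response and heat-shock genes on the negative side, and brown fat, mitosis, cardiac muscle and skeletal muscle genes on the positive side. Without wild-type normoxia replicate 4 brown fat genes had a median interaction of 0.03, against 0.31 with it. In all, 29 lists had the larger median response in Fgf10+/- pups. The 19 lists described below were chosen after their values were seen.

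**Figure D3:**
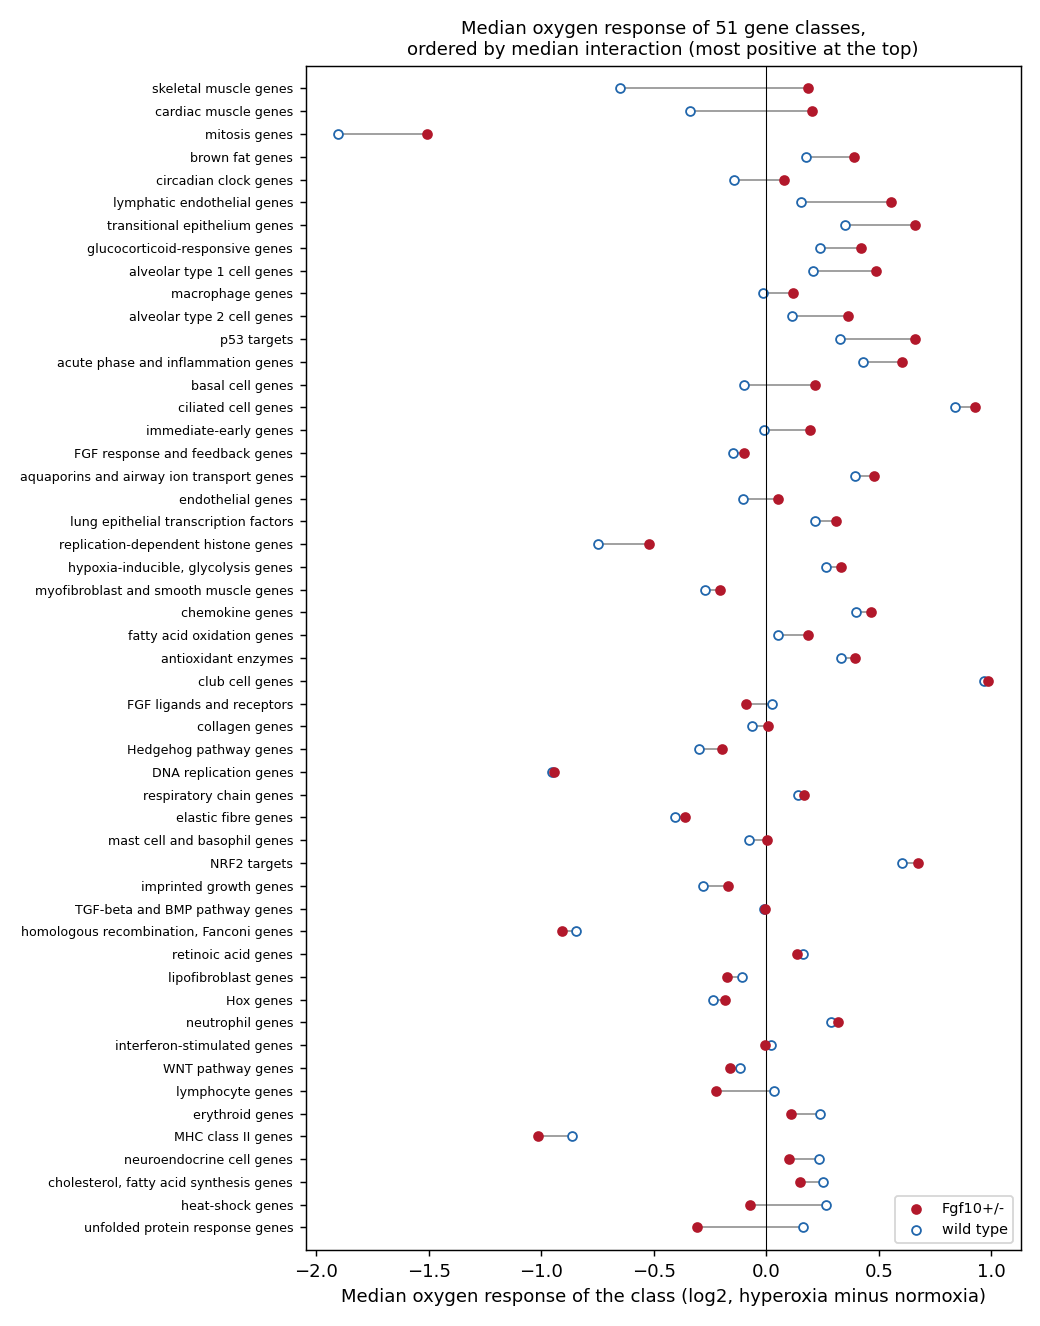
Median oxygen response (log2, hyperoxia minus normoxia) of 51 gene classes in Fgf10+/- pups (filled red) and wild-type pups (open blue), ordered by the median interaction. Mitosis genes had medians of -1.51 in Fgf10+/- pups and -1.90 in wild type, while DNA replication genes lie at almost the same place in both.

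Mitosis genes, which build the spindle, kinetochore and mitotic cyclins, had a median response of -1.51 in Fgf10+/- pups and -1.90 in wild type, with 31 and 30 of 32 tested members called lower. DNA replication genes, which encode the helicase, polymerases and clamp, had medians of -0.95 and -0.95, with 27 and 26 of 31 called lower. The median interaction was 0.45 for mitosis and 0.03 for replication. An unadjusted p under 0.05 was reached by 9 mitosis genes, all positive, and by 0 replication genes, against 6.62% of all tested genes. At that share few replication genes would reach it, so their 0 is near the background.

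The array means of the 2 lists show the 4 corners. Mitosis genes had class means of 7.16, 7.85, 7.77 and 7.95 in Fgf10+/- hyperoxia and 9.18, 9.24, 9.16 and 9.18 in Fgf10+/- normoxia. Wild-type arrays had 6.67, 6.67, 6.28 and 6.77 in hyperoxia and 8.21, 8.38, 8.59 and 8.74 in normoxia. Fgf10+/- arrays therefore lay above wild-type arrays at both oxygen levels without overlap, by a median over members of 1.22 in hyperoxia and 0.70 in normoxia. For replication genes the same medians were 0.23 and 0.20. When each array was left out in turn the median interaction of mitosis genes stayed between 0.34 and 0.67, and that of replication genes ran from -0.04 to 0.13. Such a range is not a confidence interval. From the array means, the interaction of the class mean was 0.37 (SE 0.24) for mitosis and 0.07 (SE 0.17) for replication genes. By this SE the sign of the mitosis interaction is not secure.

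Ccnb2, a cyclin that activates the kinase of mitotic entry, had log2 intensities of 8.999, 9.62, 9.72 and 9.95 in Fgf10+/- hyperoxia and 11.23, 11.16, 11.12 and 11.22 in Fgf10+/- normoxia. In wild type it had 8.29, 8.30, 7.88 and 8.10 in hyperoxia and 10.43, 10.31, 10.72 and 10.91 in normoxia. It fell in both, with responses of -1.61 in Fgf10+/- pups and -2.45 in wild type (limma adjusted p = 3.8e-05 and 2.7e-06), and its interaction of 0.84 (SE 0.26) did not pass (adjusted p = 0.618). Bub1b, a spindle checkpoint kinase, (-2.06 in Fgf10+/- pups and -2.40 in wild type), and Spc24, a kinetochore subunit (-2.15 and -2.42), fell with interactions of 0.34 (SE 0.24) and 0.28 (SE 0.24).

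In replication genes 22 of 31 interactions were positive, close to the 23 of 32 of mitosis genes, but they were smaller. Mcm2, a subunit of the replicative helicase, fell with responses of -1.37 in Fgf10+/- pups and -1.25 in wild type (95% interval of the interaction -0.59 to 0.34), and Pcna, the sliding clamp, with -1.07 and -1.02 (-0.43 to 0.32). Fen1, the flap endonuclease, fell with -1.12 and -1.33 (-0.17 to 0.59). Tk1, thymidine kinase, had the smallest interaction p of the list, with an interaction of 0.45 (SE 0.30). Homologous recombination and Fanconi genes had medians of -0.91 in Fgf10+/- pups and -0.85 in wild type, with 11 of 20 called lower in each. Brip1, a helicase of that pathway, went the other way from mitosis genes: it fell with responses of -1.44 in Fgf10+/- pups and -0.89 in wild type, with an interaction of -0.55 (SE 0.18, adjusted p = 0.652).

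Promoter sequences are shown because mitosis and replication genes also differ in the letters around their start sites. The cell cycle genes homology region, with the letters TTTGAA, is an element of promoters active late in the cell cycle, and E2F sites are typical of genes of DNA synthesis. Promoter windows of 250 bases before to 50 after the start site from RefSeq (GRCm38.p6) were searched on both strands for TTTGAA, for TTTCGCGC or TTTGGCGC, for TGACNNNGC and for CCAAT. The motifs were chosen with the classes' responses known. TTTGAA was in 25 of 30 mitosis windows (83.3%), in 4 of 30 replication windows (13.3%) and in 15% of 19580 windows of all tested genes. The E2F letters were in 1 of 30 mitosis windows (3.33%), in 9 of 30 replication windows (30%) and in 1.13% of all windows. CCAAT was in 80% of mitosis, 60% of replication and 37.7% of all windows, and TGACNNNGC, the core of the antioxidant response element, in 23.3%, 23.3% and 13.3% of them and in 10 of 32 windows of NRF2 targets (31.3%).

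The following stretches run 5′ to 3′ from 120 bases before to 30 after the start site. They belong to the 4 mitosis genes and the 2 replication genes with the smallest p of the mean response whose stretch holds TTTGAA or the E2F letters, so they were picked for holding them, and capitals mark those letters on either strand.
Ccnb2 (chr9:70421525-70421674, minus strand): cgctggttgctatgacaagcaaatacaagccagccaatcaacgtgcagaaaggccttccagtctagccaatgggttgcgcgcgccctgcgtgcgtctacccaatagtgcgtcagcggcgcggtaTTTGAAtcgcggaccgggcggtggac
Cenpa (chr5:30666766-30666915, plus strand): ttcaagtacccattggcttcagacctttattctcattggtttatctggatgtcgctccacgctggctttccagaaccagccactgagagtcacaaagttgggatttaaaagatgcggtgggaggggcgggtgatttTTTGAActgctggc
Kif11 (chr19:37376262-37376411, plus strand): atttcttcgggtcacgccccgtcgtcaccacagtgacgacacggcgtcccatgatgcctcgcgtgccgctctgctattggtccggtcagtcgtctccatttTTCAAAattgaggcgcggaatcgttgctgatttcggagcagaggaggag
Kif23 (chr9:61946770-61946919, minus strand): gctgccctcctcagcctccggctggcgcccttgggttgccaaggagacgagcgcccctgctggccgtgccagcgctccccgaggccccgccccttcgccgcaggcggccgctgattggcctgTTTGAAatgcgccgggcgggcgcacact
Rfc3 (chr5:151651179-151651328, minus strand): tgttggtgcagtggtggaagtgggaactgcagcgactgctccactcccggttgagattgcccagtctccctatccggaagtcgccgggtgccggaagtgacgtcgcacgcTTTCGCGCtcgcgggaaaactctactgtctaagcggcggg
Mcm6 (chr1:128359676-128359825, minus strand): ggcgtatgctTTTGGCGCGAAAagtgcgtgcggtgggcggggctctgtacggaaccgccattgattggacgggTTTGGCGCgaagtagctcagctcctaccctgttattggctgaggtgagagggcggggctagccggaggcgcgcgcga

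Genes that hold TTTGAA did not share 1 interaction. Ccnb2 and Cenpa, a centromeric histone, had interactions of 0.84 (SE 0.26) and 0.85 (SE 0.31), whereas the kinesins Kif11 and Kif23 had -0.16 (SE 0.26) and -0.02 (SE 0.28). Rfc3, a clamp loader subunit, had 0.24 (SE 0.23) and Mcm6, a helicase subunit, 0.02 (SE 0.20). Beyond the lists, 412 called-lower genes with TTTGAA and none of the cell division lists responded more in Fgf10+/- pups in 243 cases (59%), against 1107 of 1886 without it (58.7%). Among the strong falls, with a mean response below -1 and cell division genes included, the split was wider: 32 of 91 genes with TTTGAA (35.2%, median interaction 0.17) responded more in Fgf10+/- pups, against 106 of 207 without it (51.2%, median -0.01). A match to these letters is a description of the window and not a binding site.

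**Figure D4:**
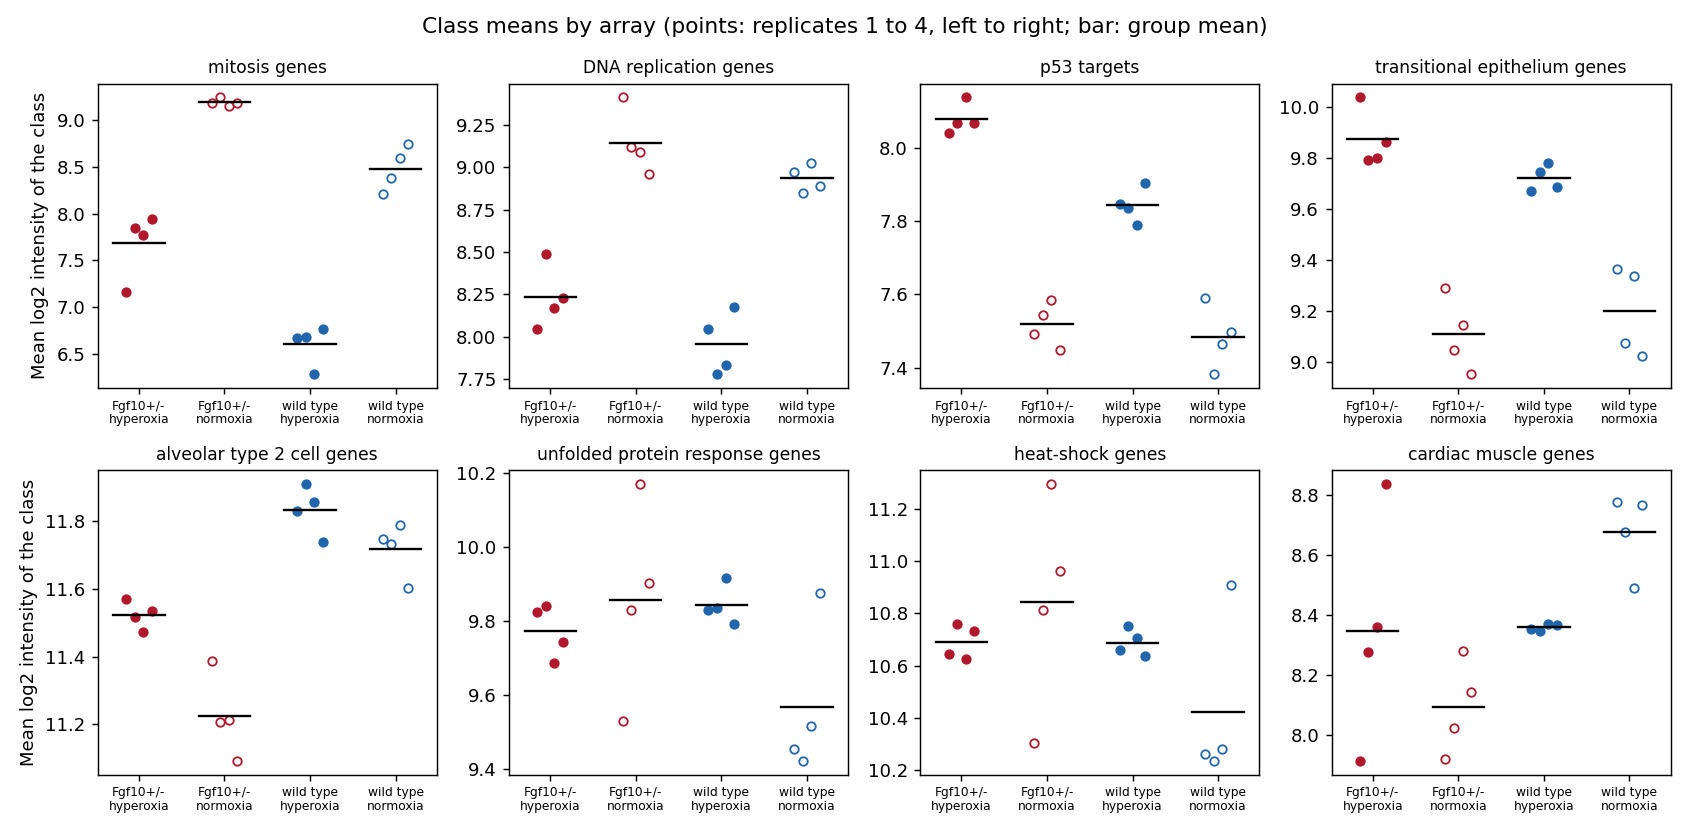
Mean log2 intensity of 8 gene classes on each array (points, replicates 1 to 4) with the group mean (bar), for Fgf10+/- pups (red) and wild-type pups (blue) in hyperoxia (filled) and normoxia (open). Mitosis genes lie higher in Fgf10+/- pups at both oxygen levels, p53 targets separate the genotypes in hyperoxia and overlap in normoxia, and the heat-shock panel shows 1 low Fgf10+/- and 1 high wild-type array in normoxia.

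Targets of p53, the damage-activated transcription factor that halts the cycle, had a median response of 0.66 in Fgf10+/- pups and 0.33 in wild type. Of 29 tested, 15 were called higher and 2 lower in Fgf10+/- pups, against 13 and 1 in wild type. The class means were 8.04, 8.07, 8.14 and 8.07 in Fgf10+/- hyperoxia and 7.49, 7.54, 7.59 and 7.45 in Fgf10+/- normoxia. They were 7.85, 7.84, 7.79 and 7.90 in wild-type hyperoxia and 7.59, 7.38, 7.46 and 7.50 in wild-type normoxia. The genotypes were apart in hyperoxia and overlapped in normoxia. The median interaction was 0.19, from 0.15 to 0.26 when arrays were left out. Of the 29, 5 reached an unadjusted p under 0.05, all positive, against 3.9% positive among all tested genes. Ckap2, counted among the 5, fell in both genotypes and fell less in Fgf10+/- pups.

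Cdkn1a and Mdm2 showed the pattern within the list. Cdkn1a, the inhibitor p21 that stops cyclin-dependent kinases, had 10.24, 10.55, 10.53 and 10.48 in Fgf10+/- hyperoxia and 8.30, 7.70, 8.04 and 7.91 in Fgf10+/- normoxia. In wild type it had 10.09, 9.97, 9.84 and 10.09 in hyperoxia and 8.26, 7.98, 8.15 and 7.998 in normoxia. Cdkn1a rose by 2.46 in Fgf10+/- pups and 1.90 in wild type (adjusted p = 2.6e-07 and 1.7e-06), and its interaction was 0.56 (SE 0.18, adjusted p = 0.618). Mdm2, the ligase that degrades p53, had 11.40, 11.24, 11.28 and 11.27 in Fgf10+/- hyperoxia and 10.47, 10.46, 10.37 and 10.55 in Fgf10+/- normoxia. In wild type it had 11.14, 11.18, 11.04 and 10.98 in hyperoxia and 10.78, 10.81, 10.78 and 10.66 in normoxia. Mdm2 was thus higher than wild type in hyperoxia and lower in normoxia, without overlap, with responses of 0.84 and 0.33 and an interaction of 0.51 (SE 0.11, unadjusted p = 0.000467, adjusted p = 0.501). Aen, a p53-induced nuclease, rose by 0.98 and 0.93. Ckap2, on the list as a p53 target but a spindle protein, fell with responses of -1.501 in Fgf10+/- pups and -2.40 in wild type, the direction of the mitosis genes.

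The antioxidant programme rose in both genotypes. NRF2 targets, the detoxifying and glutathione enzymes, had medians of 0.68 in Fgf10+/- pups and 0.60 in wild type and a median interaction of 0.01, with 19 and 18 of 30 called higher. Gpx2, a glutathione peroxidase, had 11.52, 11.15, 11.41 and 10.77 in Fgf10+/- hyperoxia and 8.18, 8.39, 8.25 and 8.10 in Fgf10+/- normoxia. Wild-type values were 11.41, 11.45, 11.45 and 11.08 in hyperoxia and 8.43, 8.02, 8.47 and 8.16 in normoxia. Gpx2 rose by 2.98 and 3.08, and the 95% interval of its interaction ran from -0.59 to 0.39. Ephx1, an epoxide hydrolase, rose by 1.89 in Fgf10+/- pups and 1.42 in wild type (interaction 0.47, SE 0.17, adjusted p = 0.687), and Gsta3, a glutathione transferase, by 2.21 and 1.83 (interaction 0.38, SE 0.19). Hypoxia-inducible and glycolysis genes had medians of 0.33 and 0.26 and a median interaction of 0.08, which ran from 0.03 without Fgf10+/- hyperoxia replicate 1 to 0.13 without Fgf10+/- hyperoxia replicate 3 and was 0.04 without wild-type normoxia replicate 4. The glycolytic enzymes Eno1 (0.74 and 0.69), Aldoa (0.84 and 0.54) and Gapdh (0.54 and 0.59) rose in both genotypes.

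Among epithelial classes, every list but neuroendocrine cell genes had the higher median response in Fgf10+/- pups. The median interaction was 0.22 for transitional and for type 1, 0.21 for type 2 and 0.14 for basal and for ciliated cell genes. It was 0.09 for lung epithelial transcription factors and 0.05 for club cell genes. The interaction of the class mean, from the array means, was 0.25 (SE 0.13) for transitional and 0.20 (SE 0.07) for type 1 genes. For type 2 genes it was 0.18 (SE 0.08) and for basal cell genes 0.15 (SE 0.08). Ciliated cell genes had 0.12 (SE 0.20), the transcription factors 0.10 (SE 0.08) and club cell genes 0.03 (SE 0.16). By these SEs the sign is not secure for most of these lists. Neuroendocrine cell genes had medians of 0.10 in Fgf10+/- pups and 0.23 in wild type. Their median interaction was -0.17, from -0.19 to -0.06 when arrays were left out. Their class mean had an interaction of -0.08 (SE 0.15), so this sign is not secure. The only member at an unadjusted p under 0.05 in limma had a positive interaction. Transitional epithelium genes, the keratins and stress genes of cells passing between alveolar types, had medians of 0.66 in Fgf10+/- pups and 0.35 in wild type. All 13 members called in the mean response responded more in Fgf10+/- pups, against 60.9% of all genes called in it. This was not particular to the list: it held for 13 of 14 alveolar type 1 genes and 12 of 12 WNT pathway genes. The class means were 10.04, 9.79, 9.80 and 9.86 in Fgf10+/- hyperoxia and 9.29, 9.04, 9.15 and 8.95 in Fgf10+/- normoxia, against 9.67, 9.74, 9.78 and 9.69 in wild-type hyperoxia and 9.37, 9.08, 9.34 and 9.02 in wild-type normoxia. The hyperoxia groups did not overlap and the normoxia groups did. Krt8 rose by 1.40 and 1.02 (interaction 0.37, SE 0.12, adjusted p = 0.665) and Krt19 by 1.49 and 1.09 (interaction 0.40, SE 0.17), both epithelial keratins. Cdkn1a counts for this list and for the p53 targets.

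Alveolar type 1 genes, of the flat gas-exchange cells, had medians of 0.49 in Fgf10+/- pups and 0.21 in wild type, with 12 and 8 of 20 called higher. Ager, a defining receptor of type 1 cells, had 12.02, 12.01, 11.80 and 12.27 in Fgf10+/- hyperoxia and 11.47, 11.44, 11.58 and 11.57 in Fgf10+/- normoxia. Wild-type arrays had 11.81, 11.72, 12.01 and 11.98 in hyperoxia and 12.17, 12.06, 12.13 and 11.87 in normoxia. It rose by 0.51 in Fgf10+/- pups (adjusted p = 0.0037), while the wild-type difference was -0.18 (adjusted p = 0.31), and the genotypes were apart in normoxia and overlapped in hyperoxia. Its interaction was 0.69 (SE 0.16, unadjusted p = 0.000582, adjusted p = 0.501). Hopx, a regulator of type 1 cells, rose by 1.37 and 1.04, Gprc5a, a retinoic acid-induced receptor, by 1.15 and 0.71, and Pdpn, a surface glycoprotein, by 0.77 and 0.61.

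Alveolar type 2 genes, of the surfactant-producing cells, had medians of 0.36 in Fgf10+/- pups and 0.11 in wild type and a median interaction of 0.21, which was 0.14 without Fgf10+/- hyperoxia replicate 4. Their class means were 11.57, 11.52, 11.47 and 11.54 in Fgf10+/- hyperoxia and 11.39, 11.21, 11.21 and 11.09 in Fgf10+/- normoxia. Wild-type means were 11.83, 11.91, 11.86 and 11.74 in hyperoxia and 11.75, 11.73, 11.79 and 11.60 in normoxia. Fgf10+/- arrays were lower at both oxygen levels without overlap, by medians of 0.35 in hyperoxia and 0.51 in normoxia, so the larger rise started from a lower level. Napsa, a protease that processes surfactant proteins, rose by 0.76 in Fgf10+/- pups against a wild-type difference of 0.12 (interaction 0.64, SE 0.18, adjusted p = 0.588). Abca3, the lipid transporter of lamellar bodies, rose by 0.52 and 0.30, and the protease Ctsh by 1.40 and 1.01. S100g, a calcium-binding protein, rose by 2.15 and 1.75, while Dlk1, a Notch pathway ligand on the list, fell (-2.10 and -2.32). Sftpc lay between 15.97 and 15.99 on all arrays, the ceiling of the signal, so its response could not be read.

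Airway classes were among the strongest rises in both genotypes. Club cell genes, of the secretory airway cells, had medians of 0.99 in Fgf10+/- pups and 0.97 in wild type, with 13 and 14 of 18 called higher. Aldh1a1, a retinal dehydrogenase, rose by 2.21 and 1.87, Gsto1 by 1.87 and 1.81 and Bpifa1, a secreted defence protein, by 2.46 and 2.49. Cbr2 reached 15.94 to 15.99 on all hyperoxia arrays, at the ceiling, which limits its interaction of 0.29. Ciliated cell genes had medians of 0.93 and 0.84, with 21 and 20 of 29 called higher, and Cfap52, a cilia- and flagella-associated protein, rose by 2.09 and 1.66 (interaction 0.43, SE 0.38).

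The 2 protein-folding classes leaned the other way. Unfolded protein response genes, which encode chaperones and sensors of the endoplasmic reticulum, had medians of -0.31 in Fgf10+/- pups and 0.17 in wild type and a median interaction of -0.43, the lowest of the 51 lists. An unadjusted p under 0.05 was reached by 7 of 20, all negative, against 2.72% negative among all tested genes. Their class means were 9.82, 9.84, 9.69 and 9.74 in Fgf10+/- hyperoxia and 9.53, 9.83, 10.17 and 9.90 in Fgf10+/- normoxia, against 9.83, 9.83, 9.92 and 9.79 in wild-type hyperoxia and 9.45, 9.42, 9.52 and 9.87 in wild-type normoxia. The groups overlapped at both oxygen levels, and the normoxia groups were wide: Fgf10+/- replicate 1 was low and wild-type replicate 4 high. Heat-shock genes, the cytosolic chaperones, had medians of -0.07 and 0.27 and the same spread in normoxia. From the array means, the interaction of the class mean was -0.36 (SE 0.17) for unfolded protein response genes and -0.42 (SE 0.27) for heat-shock genes.

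Without both arrays that stand apart the median interaction was -0.70 for unfolded protein response genes and -0.63 for heat-shock genes. Without Fgf10+/- normoxia replicate 3, the highest array of its group in both lists, it was -0.33 and -0.25, against -0.43 and -0.39 on all arrays. Of the 15 genes called without both arrays that stand apart, 8 had a negative interaction. Among them were the chaperones Hspa5 (-1.18, adjusted p = 0.0192, limma) and Hsph1 (-2.32, adjusted p = 0.0192). Since 1 reason for leaving these arrays out was their level of heat-shock genes, the calls are not independent of that choice. They were the lowest Fgf10+/- and the highest wild-type normoxia array in both lists. Leaving them out therefore lowers the interaction of both class means by construction. On all 16 arrays Hspa5 had an interaction of -0.73 (adjusted p = 0.737) and Hsph1 of -1.30 (adjusted p = 0.783). Pdia6, a disulphide isomerase, had the smallest interaction p of its list on all arrays (-0.47, SE 0.17, adjusted p = 0.71), and the mitochondrial chaperone Hspd1 had -0.55 (SE 0.15, adjusted p = 0.588). Members did not move together: Asns, asparagine synthetase, rose by 1.19 and 1.16, and Dnajb1, a co-chaperone, fell in both (-0.81 and -0.81).

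Elastic fibre genes had medians of -0.36 in Fgf10+/- pups and -0.41 in wild type, with 8 of 23 called lower in each, and Fbn1, the main fibrillin, fell (-0.91 and -0.85). MHC class II genes, of antigen-presenting cells, had medians of -1.02 and -0.86, with 7 and 5 of 11 called lower. Among FGF response and feedback genes, with medians of -0.10 and -0.15, the transcription factors Etv1 (-0.92 and -1.06) and Etv4 (-1.04 and -1.32) and the inhibitor Spry1 (-0.65 and -0.87) fell in both genotypes. Etv5, an FGF target of distal epithelium, had 11.29 to 11.61 on the Fgf10+/- arrays and 11.89 to 12.20 on the wild-type arrays, and neither response passed (0.19 and -0.13). Cholesterol and fatty acid synthesis genes had medians of 0.15 and 0.25 and a median interaction of -0.21, the third lowest of the lists, negative in all 16 fits that left out 1 array and smallest at -0.10 without wild-type normoxia replicate 2. Their class mean had an interaction of -0.18 (SE 0.09). Elovl6, a fatty acid elongase, fell, with responses of -0.97 in Fgf10+/- pups and -0.36 in wild type (interaction -0.60, SE 0.15, adjusted p = 0.562). Fads1 fell as well (-1.11 and -0.79), while Acaca rose by 0.69 and 0.63 (interaction 0.06, SE 0.15).

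Muscle classes had the highest median interactions and rest on few arrays or on normoxia. Skeletal muscle genes had medians of 0.18 in Fgf10+/- pups and -0.65 in wild type. Without wild-type normoxia replicate 4, whose mean was 7.74, the median interaction dropped to 0.25, against 0.80 with it. Cardiac muscle genes had medians of 0.20 and -0.34 and a median interaction of 0.69, with 7 of 17 at an unadjusted p under 0.05, all positive. Over all tested genes the positive share was 3.9%. Their class means were 7.91, 8.28, 8.36 and 8.84 in Fgf10+/- hyperoxia and 7.92, 8.02, 8.28 and 8.15 in Fgf10+/- normoxia, against 8.35, 8.35, 8.37 and 8.37 in wild-type hyperoxia and 8.78, 8.68, 8.49 and 8.77 in wild-type normoxia. Wild-type normoxia lay above Fgf10+/- normoxia without overlap, while in hyperoxia the Fgf10+/- arrays spread to both sides of wild type. Tnnt2, cardiac troponin T, rose by 0.87 in Fgf10+/- pups against a wild-type difference of -0.20 (interaction 1.07, SE 0.25, adjusted p = 0.501), and the myosin Myh7 rose by 1.18 and 0.49. Sln and Myl7, also on the list, fell in wild type (-1.39 and -1.01), against Fgf10+/- differences of -0.28 and -0.13. How much heart or pulmonary vein muscle each homogenate held was not tested.

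**Figure D5:**
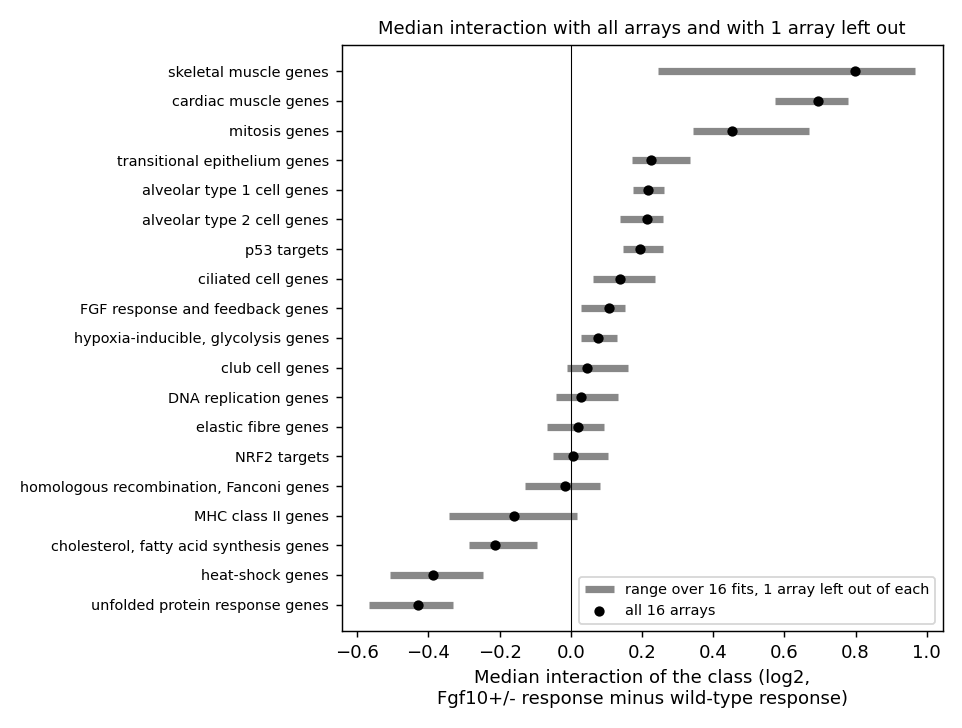
Median interaction (log2, Fgf10+/- response minus wild-type response) of 19 gene classes with all 16 arrays (points) and its range over fits that each left out 1 array (bars). The bar of skeletal muscle genes reaches down to 0.25, that of mitosis genes runs from 0.34 to 0.67, and that of NRF2 targets crosses 0. The bars are not confidence intervals.

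The 20 genes with the smallest interaction p, 10 in each direction, belonged to none of the 51 lists, and 15 of them had opposite signs in the 2 genotypes. Their adjusted p lay between 0.467 and 0.501 in limma, so none passed, and 9 had a group mean under 4.50, the median of all features. Macrod1, a mitochondrial hydrolase of ADP-ribose marks, was first. It had 8.80, 8.80, 8.89 and 8.95 in Fgf10+/- hyperoxia and 7.71, 7.75, 7.75 and 7.60 in Fgf10+/- normoxia, against 8.996, 8.91, 8.98 and 8.96 in wild-type hyperoxia and 8.48, 8.65, 8.34 and 8.68 in wild-type normoxia. It rose by 1.16 and 0.42, with an interaction of 0.74 (SE 0.12, unadjusted p = 3.71e-05, adjusted p = 0.467), and the genotypes lay furthest apart in normoxia.

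The other positive genes of the 20 were Enho (0.78), Tfr2 (1.62), Ern2 (1.65), Prr7 (0.97), Pnpla2 (0.65), Scx (0.69), Pamr1 (0.78), Tbx20 (1.46) and Mab21l4 (0.73), with the interaction in parentheses. Pamr1 rose by 1.45 in Fgf10+/- pups and 0.67 in wild type, and Mab21l4 by 1.72 and 0.99. Pnpla2, the lipase that starts triglyceride breakdown, rose in Fgf10+/- pups (0.35) and fell in wild type (-0.31), and Scx, a transcription factor of tendon, did likewise (0.34 and -0.34). The negative genes were Rfesd (-1.67), Spink7 (-1.06), Il2rb (-1.68), Krt79 (-0.82), Ccr6 (-1.11), St6gal2 (-1.04), Slc12a8 (-1.67), Prpf38b (-0.98), Cd209f (-1.94) and Llgl1 (-1.48). Ccr6, a chemokine receptor, rose by 0.55 in Fgf10+/- pups and 1.66 in wild type, and Prpf38b, a splicing factor, fell in Fgf10+/- pups (-1.18) against a wild-type difference of -0.20. The size depended on the processing for Tbx20 and Slc12a8. Over the alternatives listed below, the interaction ran from 0.36 to 1.64 for Tbx20 and from -1.98 to -0.41 for Slc12a8.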

How the data were processed

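The values are log2 intensities per array feature, used as the authors deposited them. Per the labels' protocols, total RNA from a miRNeasy extraction was amplified and hybridised in 1 colour. The sources used here do not state how background was corrected or arrays were normalized. The array medians differed by at most 0.000677 and the highest value was 15.99. Features were named through the platform annotation, with symbols updated through RefSeq accessions for 29050 features. Dim features were dropped: 4 or more arrays had to show a feature above their own 25th percentile. The brightest kept feature stood for its gene. limma 3.58.1 (R 4.3.3) fitted 1 mean per group, with 12 residual and 2.13 prior degrees of freedom and Benjamini-Hochberg adjustment over 20173 genes. Every adjusted p in the text is from that fit unless another is named. The steps were tested on simulated data. Precision is set by 4 arrays a group.

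The members and lists were chosen with earlier results of these data known, so lists carry no test. Genes named were, where fewer than 5 interactions passed, the 10 with the smallest p in each direction, without sex-linked and clone names. To these were added per list described up to 3 by smallest p of the mean response and 1 by smallest p of the interaction, and always Fgf10, Gpx2, Cdkn1a, Sftpc, Abca3 and Ager. Cenpa, Kif11, Kif23, Rfc3, Mcm6, Hspa5 and Hsph1 were named after their values were seen. Replicate numbers did not pair the samples (same-number correlations of residuals from -0.029 to 0.087). Alternatives changed the filter, the feature per gene, the scaling, the empirical Bayes options, array weights, a replicate block, a sex covariate and each array left out.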

Additional observations from a re-analysis of the deposited data

Results flagged for a closer look

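In groups of 4 arrays, the distance of the most extreme array from its neighbour was set against the range of its group, for 113 classes and genes in 452 groups, and 22 arrays exceeded Dixon's 95% critical value. Chance alone flags about 1 in 20 such groups. The number depends on which lists and genes are described.

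Wild-type normoxia replicate 4 was high in skeletal muscle genes (7.74, others 5.13 to 5.29), heat-shock genes (10.91), Dnajb1 (12.39), Stip1 (9.144) and Hspd1 (11.59), and low in Spry1 (10.77). Other wild-type arrays far from their group were Sftpc in normoxia replicate 2 (15.98), and in hyperoxia Fbn2 (8.379) and skeletal muscle genes (5.517) in replicate 1, elastic fibre genes (9.551), Tfr2 (5.163) and Hspd1 (11.56) in replicate 2, Napsa (12.37) in replicate 3, and Gpx2 (11.08), Aldh1a1 (14.34) and H2-DMa (6.213) in replicate 4. Among Fgf10+/- arrays these were Gapdh (14.82) and Hspa4l (9.158) in hyperoxia replicate 1, Aldoa (14.23) in hyperoxia replicate 3, Hopx (13.05) in hyperoxia replicate 4, and H2-DMa (7.107) and Casq1 (2.864) in normoxia replicate 3.

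In 3 named genes the hyperoxia and normoxia arrays did not overlap in either genotype and lay in opposite order in the 2 genotypes: Pnpla2 (interaction 0.6518), Scx (0.6858) and Spink7 (-1.06). In limma their interactions did not pass (adjusted p = 0.5, 0.5 and 0.467). All 3 belong to the 20 genes chosen for the smallest interaction p, a choice that favours such an order. How many of all tested genes show it was not counted.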

How the results depend on the processing

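The counts of genes called in Fgf10+/- hyperoxia (3996 to 5340), in wild-type hyperoxia (3078 to 4478) and in the mean response (6137 to 7155) stayed within 1.5 times their main value under all alternatives. The interaction called 0 genes in all but 2 fits on adjusted p: 1 gene without wild-type hyperoxia replicate 2 (0 to 1 over the leave-one-out fits) and 15 without wild-type normoxia replicate 4 and Fgf10+/- normoxia replicate 1, a choice made after seeing the data. At an unadjusted p under 0.05 it counted 1335 genes, and 2015 without those 2 arrays. That fit also moved the median interaction of unfolded protein response genes to -0.70, transitional epithelium genes to 0.37, MHC class II genes to -0.49 and FGF response genes to -0.0083.

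With each array left out in turn, the median interaction ran from 0.146 to 0.258 for p53 targets, from -0.285 to -0.096 for cholesterol and fatty acid synthesis genes and from 0.029 to 0.151 for FGF response genes. The Fgf10 interaction ran from -0.59 to -0.40. Its exact permutation p lay between 0.0135 and 0.0522, missing 0.05 in 4 of these fits, and its brightest feature in limma had -0.69. Signs reversed for 2 named genes: Gpx2 ran from -0.202 to 0.051, and Sftpc, at the signal ceiling, from -0.00356 to 0.000876, with 0.000101 under array weights. With a replicate block the interaction called 0 genes, 1435 at an unadjusted p under 0.05, and changed no other count by more than 1.5 times. The scaling alternatives moved no class median past the spread between arrays.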
